A study of Mus musculus with 10 samples.

Results

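The ADAMTS genes encode secreted zinc metalloproteinases that cut proteins of the extracellular matrix, and 9 of them (Adamts1, Adamts2, Adamts4, Adamts5, Adamts6, Adamts7, Adamts9, Adamts10 and Adamts12) were followed across lines of the mouse osteosarcoma cell K7M2. These 9, of 41743 gene names in the count tables and of 19 ADAMTS family genes among them, were chosen by name, with their counts and RPKM in the same 10 libraries and the results of the same comparisons already known, and the choice gave no threshold on a value. Their levels and changes are therefore a description. The adjusted p-values beside them say only how large a change was against the spread between libraries, which the fit moderated over all tested genes. Of the 9 genes, 8 passed the filter on low counts and 1, Adamts9, did not.

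ADAMTS proteases are made as inactive precursors, many of them cut by furin-type convertases, and carry thrombospondin repeats, whose number and place differ between members. Adamts1, Adamts4, Adamts5 and Adamts9 cut the large hyaluronan-binding proteoglycans aggrecan and versican. Adamts2 removes the amino-terminal propeptide of fibrillar procollagens. Adamts7 and Adamts12 are a related pair known for cutting cartilage oligomeric matrix protein, and Adamts6 and Adamts10 are a related pair tied to fibrillin microfibrils. Timp3 inhibits several of these enzymes, and the endocytic receptor Lrp1 removes some of them from the cell surface.

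Poly-A RNA was sequenced from 5 lines with 2 libraries each. The parental line was unedited K7M2. The other 4 lines carried a CRISPR/Cas9 disruption of the ezrin locus (Ezrin -/-) and a shared clone tag, and had been stably transfected with an empty vector or with ezrin cDNA in its wild-type, T567A or T567D form. Ezrin links the plasma membrane to actin, and its threonine T567 is the regulatory phosphorylation site: alanine there cannot be phosphorylated, and aspartate is used as a mimic of the phosphorylated residue. No line received any other treatment. Each construct was represented by 1 stable line, so a construct and the history of its line cannot be told apart. Nothing in the labels states that a line's 2 libraries were grown as separate cultures, so p-values here reflect a spread that could be technical.

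The 9 genes share the zinc-binding stretch of the catalytic domain, which is shown for the members that the results turn on because it marks them as active-site proteases and shows how far their coding sequences have diverged. Each stretch of 33 bases is from the GENCODE M21 transcripts of GRCm38, the 3 histidine codons that hold the zinc ion are in capitals, and each stretch is split by an intron, so the coordinates span it. The sites were chr16:85799191-85799545 on the minus strand for Adamts1 (exons 3 and 4 of 9), chr16:85878015-85887826 on the minus strand for Adamts5 (exons 2 and 3 of 8), chr1:171253210-171253915 on the plus strand for Adamts4 (exons 3 and 4 of 9), and chr11:50775403-50776134 on the plus strand for Adamts2 (exons 7 and 8 of 22).
Adamts1: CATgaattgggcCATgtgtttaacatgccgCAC
Adamts5: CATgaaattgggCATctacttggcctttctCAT
Adamts4: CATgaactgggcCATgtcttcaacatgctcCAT
Adamts2: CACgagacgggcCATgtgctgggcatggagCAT
All 9 members held 1 such stretch. Between any pair of members it was identical at 17 to 28 of the 33 bases, with Adamts1 and Adamts9 the closest. Over the whole transcripts the longest identical run between any pair was 12 to 31 bases over 36 pairs, the 31 being shared by Adamts4 and Adamts9.

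Promoter windows of RefSeq (GRCm38.p6) were matched for 4 of the 9 members: Adamts1, Adamts2, Adamts9 and Adamts12. The 250 bases before the start of Adamts1 (chr16:85803114-85803363, minus strand) and of Adamts2 (chr11:50601835-50602084, plus strand) are shown because these genes had different patterns over the ezrin lines, with matches of 2 searched motifs in capitals: TATAAA, the TATA box, and GGGCGG, the GC box, on either strand.
Adamts1: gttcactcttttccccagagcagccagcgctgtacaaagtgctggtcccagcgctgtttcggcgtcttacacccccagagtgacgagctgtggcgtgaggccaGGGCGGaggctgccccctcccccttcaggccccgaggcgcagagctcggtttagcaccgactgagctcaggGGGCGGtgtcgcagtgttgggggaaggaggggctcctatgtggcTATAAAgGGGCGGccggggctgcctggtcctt
Adamts2: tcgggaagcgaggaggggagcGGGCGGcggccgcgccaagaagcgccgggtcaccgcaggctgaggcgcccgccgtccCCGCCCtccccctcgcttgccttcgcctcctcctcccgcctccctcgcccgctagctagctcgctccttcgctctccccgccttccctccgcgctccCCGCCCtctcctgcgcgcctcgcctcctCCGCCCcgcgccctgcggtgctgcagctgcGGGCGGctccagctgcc
The Adamts1 window held TATAAA at -32 from the start and GGGCGG 3 times, and was 65.6% G and C. The Adamts2 window held no TATAAA and GGGCGG 5 times, and was 78% G and C. Of 32851 mouse promoter windows of this length, 12.4% held TATAAA, 32.7% held GGGCGG, and the median G and C content was 52.4%. The Adamts12 window held neither motif. Letters of 4 further motifs, each searched on both strands, were in none of the 4 windows: TGANTCA (AP-1, in 6.75% of all windows), TTCNNNGAA (STAT, 7.02%), GGAATG (TEAD, 12.6%) and CACGTG (E-box, 6.02%). A match is a description of the letters and was not tested as a binding site.

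Total counts per library ran from 14679424 to 18230763, so 3 counts, used as the detection floor, equal 0.165 to 0.204 CPM (counts scaled to library total). Ezr was at 164 and 166 CPM in the parental libraries, 72.4 and 72.9 with empty vector, 230 and 234 with wild-type ezrin, 248 and 253 with T567A and 204 and 182 with T567D, lowest in both empty-vector libraries. Whether these reads came from the disrupted locus or from the cDNA was not tested. Of 9 osteoblast markers 6 reached 1 CPM, while the osteoblast transcription factor gene Sp7 and the late markers Ibsp and Bglap were at or near 0 in all libraries. The leukocyte list summed to 1144 to 1659 CPM, nearly all of it Csf1r, with Ptprc near 0 and Adgre1 at 0. The endothelial list summed to 1.50 to 2.38 CPM and the epithelial list to 0.0580 to 0.494 CPM, with Epcam at 0.

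Across the lines the ADAMTS genes did not move as a block. Adamts1 and Adamts5 were highest with T567A and low in the other 3 ezrin-disrupted lines, Adamts4 was low in parental cells and higher in all 4 derived lines, and Adamts2 was highest with empty vector and lowest with wild-type ezrin and T567A. Smaller changes were seen for Adamts7, Adamts10 and Adamts12, and none passed the test for Adamts6. Counts were compared in 1 edgeR quasi-likelihood fit over all 10 libraries, and a gene was called at a Benjamini-Hochberg adjusted p under 0.05 over 12595 tested genes. Log2 fold changes below are the first line minus the second.

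Between empty vector and parental cells, 7 of the 8 tested members were called (54.6% of all tested genes were), of which Adamts2, Adamts4, Adamts7 and Adamts12 were higher and Adamts1, Adamts5 and Adamts10 lower. The median log2 change of the members was 0.21, against 0.00 over all tested genes. Between wild-type ezrin and empty vector 3 were called (15.6% of all), Adamts5 higher and Adamts1 and Adamts2 lower, with a members' median of 0.00 and -0.01 over all genes. Without empty-vector replicate 2 only 1 of these calls was left, that of Adamts2.

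Between T567A and wild-type ezrin 4 members were called (39.6% of all), Adamts1 and Adamts5 higher and Adamts7 and Adamts10 lower, with a median of -0.27. Between T567D and wild-type ezrin 1 member was called (1.34% of all), Adamts2, which was higher, and the median was 0.06. Between T567A and T567D 6 members were called (44.1% of all), Adamts1 and Adamts5 higher and Adamts2, Adamts4, Adamts7 and Adamts10 lower, with a median of -0.45. That count fell to 3 without T567D replicate 3, and of the 19 alternatives 9 lost the call of Adamts7 (main adjusted p = 0.0436), 5 that of Adamts4 and 2 that of Adamts10 (0.0851 without T567A replicate 3 and 0.0657 without T567D replicate 3). The wild-type libraries enter 3 of these comparisons and the T567A libraries 2, so the comparisons are not independent of each other. The counts of called members are read against these shares of all genes, which differ widely between comparisons.

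**Figure D1:**
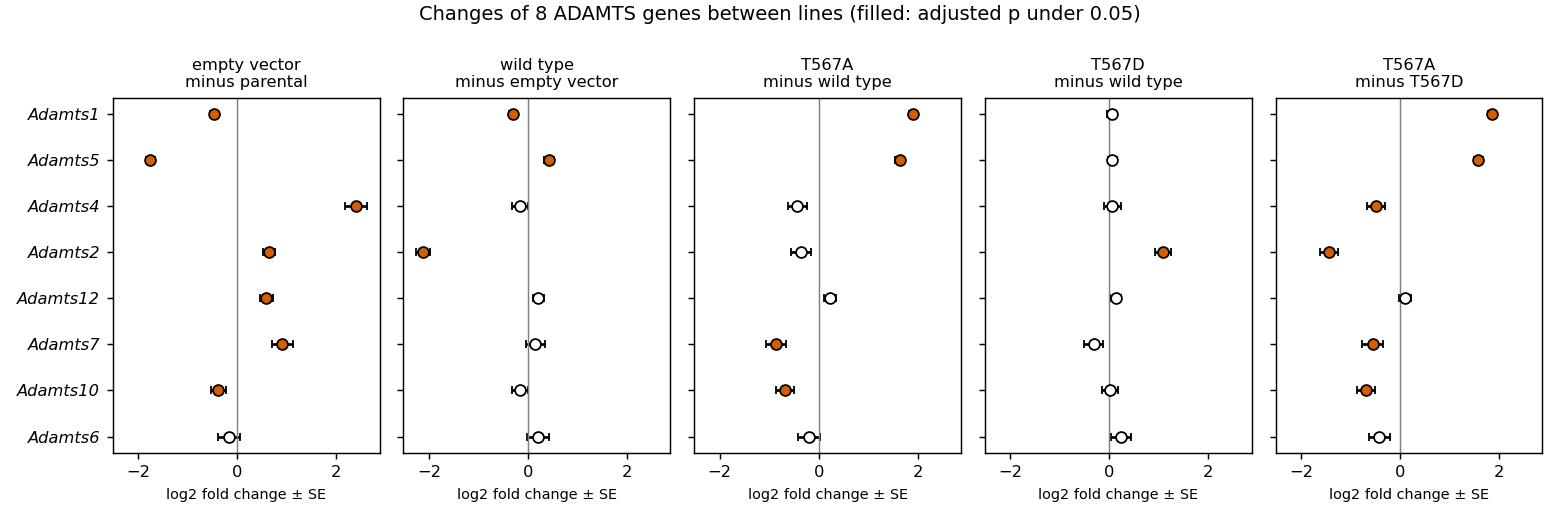
Log2 fold change (x axis) of each of the 8 tested ADAMTS genes (y axis) in the 5 comparisons, 1 panel each, with bars for the standard error and filled points for genes called at an adjusted p under 0.05. Adamts1 and Adamts5 are the members that stand at 1.58 or more in both comparisons of T567A, while Adamts2 is the single filled point for T567D minus wild type.

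Per length of transcript, Adamts1 was the most abundant ADAMTS mRNA in all 10 libraries, and Adamts5 came next in all but 1 of them. The exception was empty-vector replicate 2, where the unlisted Adamts14 was at 3.17 RPKM and Adamts5 at 2.67. The deposited RPKM, values scaled to transcript length and read total, which allow levels of different genes to be compared, summed over the whole family to 18.2 to 27.7 in the parental, empty-vector, wild-type and T567D libraries. In the T567A libraries they summed to 43.2 and 39.6. Adamts1 and Adamts5 together made up 73.7% and 74.8% of that sum in parental libraries, 50.6% and 52.0% with empty vector, 51.8% and 57.4% with wild-type ezrin, 83.7% and 83.3% with T567A, and 58.8% and 51.9% with T567D.

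The balance of these 2 genes also moved. Their RPKM were close to equal in parental cells, with an Adamts1 to Adamts5 ratio of 1.08 and 1.02. The ratio was 2.78 and 2.38 with empty vector, 1.58 and 1.52 with wild-type ezrin, 1.88 and 1.83 with T567A and 1.55 and 1.52 with T567D. Adamts1 thus exceeded Adamts5 per length in all 10 libraries, least in parental cells and most with empty vector. Adamts12 followed among the listed genes at 1.05 to 2.69 RPKM, except in parental cells, where Adamts10 was at a like level (1.13 RPKM for both means), and Adamts2, Adamts4, Adamts6, Adamts7 and Adamts10 lay at 0.221 to 1.38 RPKM.

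**Figure D2:**
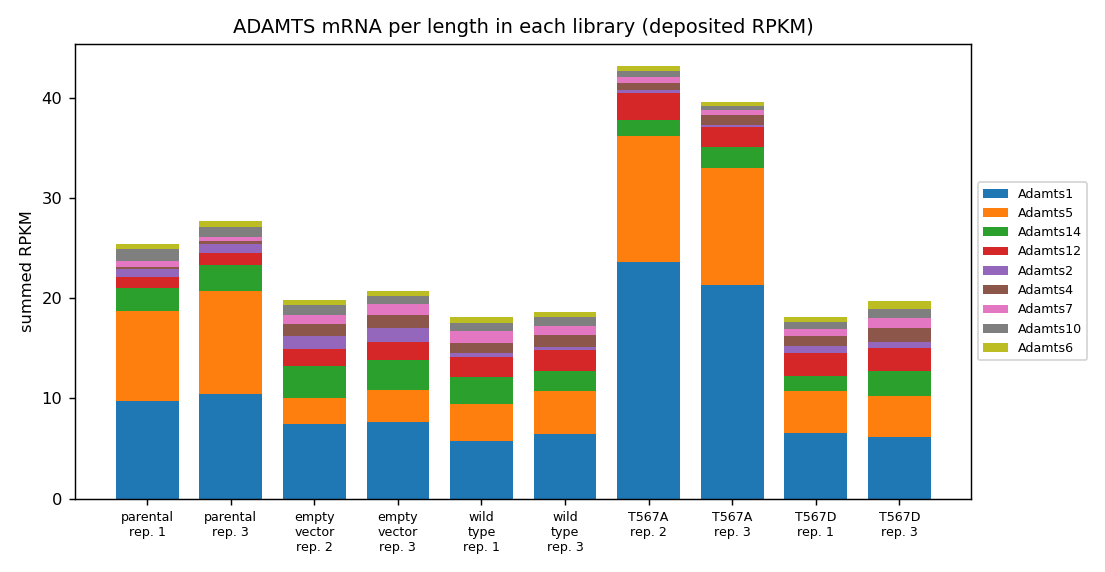
Stacked deposited RPKM of the ADAMTS genes (y axis) in each of the 10 libraries (x axis), 1 colour for each gene. The 2 T567A bars are the tallest, at 43.2 and 39.6 RPKM, and Adamts1 and Adamts5 fill 83.7% and 83.3% of them.

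Adamts1, which cuts versican and thrombospondin 1 among other proteins, was at 56.4 and 60.9 CPM in the parental libraries and 41.9 and 42.9 CPM with empty vector. It was at 32.6 and 36.4 CPM with wild-type ezrin, 136 and 122 CPM with T567A, and 36.5 and 34.8 CPM with T567D. Both T567A libraries lay above every other library, the parental libraries came next, and the wild-type and T567D libraries overlapped. Adamts1 rose 3.74-fold from wild-type ezrin to T567A (log2 1.90, SE 0.08, adjusted p = 7.6e-14 in the edgeR quasi-likelihood test). The change from parental cells to empty vector was smaller, at -0.47 (SE 0.08, adjusted p = 3.58e-05). That from empty vector to wild-type ezrin was -0.30 (SE 0.08, adjusted p = 0.0178), and its adjusted p was 0.0715 and 0.101 without empty-vector replicates 2 and 3, 0.214 without wild-type replicate 1, and 0.186 with a replicate block. T567D and wild-type ezrin, the lowest neighbours in the order of levels, did not differ beyond their spread (log2 0.05, SE 0.08).

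Adamts5, the principal aggrecanase of mouse cartilage, was at 107 and 121 CPM in the parental libraries and 30.7 and 36.7 CPM with empty vector. It was at 41.9 and 48.7 CPM with wild-type ezrin, 148 and 135 CPM with T567A, and 48.1 and 46.6 CPM with T567D. The parental and T567A libraries were all above 100 CPM and the other 6 all below 50 CPM. Adamts5 fell 3.38-fold from parental cells to empty vector (log2 -1.76, SE 0.09, adjusted p = 3.8e-12) and rose 3.12-fold from wild-type ezrin to T567A (log2 1.64, SE 0.09, adjusted p = 2.5e-11), both in the edgeR quasi-likelihood test. The T567A level was also above the parental level, by 0.31 (SE 0.08, adjusted p = 0.00302), a call that was lost without parental replicate 1 (adjusted p = 0.0656). From empty vector to wild-type ezrin the change was 0.43 (SE 0.10, adjusted p = 0.00528), with an adjusted p of 0.125 without empty-vector replicate 2 and 0.112 without wild-type replicate 3.

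Both genes thus rose with T567A. The T567A libraries also had the highest shares of mitochondrial counts, 1.90% and 1.44% against 0.844% to 1.33% in the other 8, and replicate 2 the lowest total; the part of this in the result was not tested. Both fell from parental cells to empty vector, Adamts1 by 0.47 and Adamts5 by 1.76, and this difference between the genes was not tested. Against T567D, T567A was higher by 1.85 for Adamts1 (SE 0.08, adjusted p = 1.1e-13) and by 1.58 for Adamts5 (SE 0.09, adjusted p = 3.73e-11). RNA of a line is a bulk measure, in which fewer cells that express a gene and less RNA in each cell cannot be told apart.

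**Figure D3:**
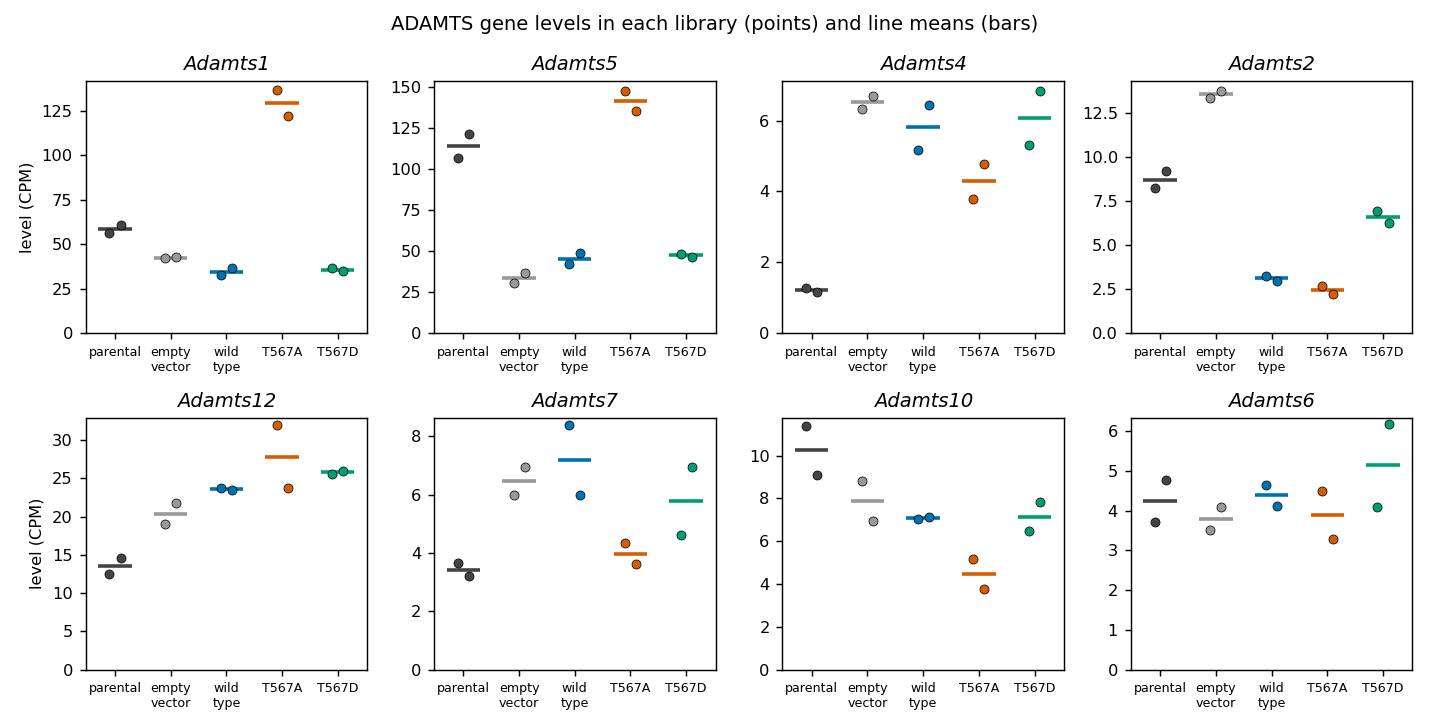
Level in CPM (y axis, starting at 0) of the 8 tested ADAMTS genes in each of the 5 lines (x axis), with a point for each library and a bar for the mean of the 2 libraries. Adamts1 and Adamts5 are highest with T567A, at means of 129 and 142 CPM, Adamts4 is lowest in parental cells at 1.22 CPM, and Adamts2 is highest with empty vector at 13.6 CPM.

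Adamts1 (16:85793827-85803113, GRCm38) and Adamts5 (16:85856173-85901828) lie next to each other on the minus strand of chromosome 16, with 53059 bases between them, and neither overlaps another annotated gene. The 6 nearest tested genes on each side were therefore set beside them. From wild-type ezrin to T567A 10 of these 12 neighbours rose (20.4% of all tested genes were called higher), 0 fell and 2 did not pass the test, with log2 changes from 0.01 to 0.94. Mrpl39, a mitochondrial ribosome protein gene, had the largest of them at 0.94, App, the amyloid precursor protein gene, changed by 0.52, and Cct8, a chaperonin subunit gene, by 0.61. All 12 changes were below those of Adamts1 and Adamts5. From parental cells to empty vector, where Adamts5 fell by 1.76, 3 of the 12 neighbours rose (27.4% of all tested genes did), 0 fell and 9 did not pass the test.

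The shift with T567A extended beyond these neighbours on both sides of the pair. Within 10 Mb of the pair, a width chosen after the values had been seen, 53 other genes were tested. Their median log2 change from wild-type ezrin to T567A was 0.38, with 36 higher, 1 lower and 16 not called, against a median of 0.08 with 83 higher, 48 lower and 199 not called for the other 330 tested genes of chromosome 16. The same 53 genes had medians of 0.50 for T567A minus parental, 0.31 for T567A minus empty vector and 0.40 for T567A minus T567D, comparisons that share the T567A libraries. For T567D minus wild type the median was -0.02, with 0 higher and 0 lower. Without T567A, 39.6% of the 53 were higher from parental cells to empty vector, against 20.3% of the other 330, with medians of 0.08 and -0.07, and from parental cells to wild-type ezrin 26.4% against 16.4%, with medians of 0.11 and -0.11. From wild-type ezrin to T567A, Adamts1 and Adamts5 changed by 1.90 and 1.64, beside the median of 0.38 of the 53 genes. They exceeded the lower median of all tested genes of chromosome 16, 0.10, by 1.80 and 1.54. Genes past 10 Mb on either side were counted among the other 330, with changes given from wild-type ezrin to T567A. On the side towards the farther end, at -10.07 to -23.07 Mb, Hspa13 (0.40), Chmp2b (0.55) and Zfp654 (0.47) were called higher. So were 4930453N24Rik (0.26), Pros1 (0.69) and Nsun3 (0.61) in that stretch, while Gbe1, Cggbp1 and Arl13b were not called. Past 10 Mb on the other side lies the nearer end of the chromosome. Called higher there with T567A than with wild-type ezrin were Psmg1 (0.34), Brwd1 (0.50), Hmgn1 (0.35), Wrb (0.45), Mx1 (2.62) and Mx2 (1.88). Mx1 thus rose more than Adamts1, and the remaining tested genes there were not called. Large changes were also seen far from the pair, upward in Parp14 (1.25) and Parp9 (1.14) at -49.98 and -49.87 Mb. Fam43a at -55.23 Mb went the other way (-1.37). Whether Mx1 and Mx2 rose as part of the shift around the pair was not tested. DNA copy number was not measured, and its part in the result was not tested.

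**Figure D4:**
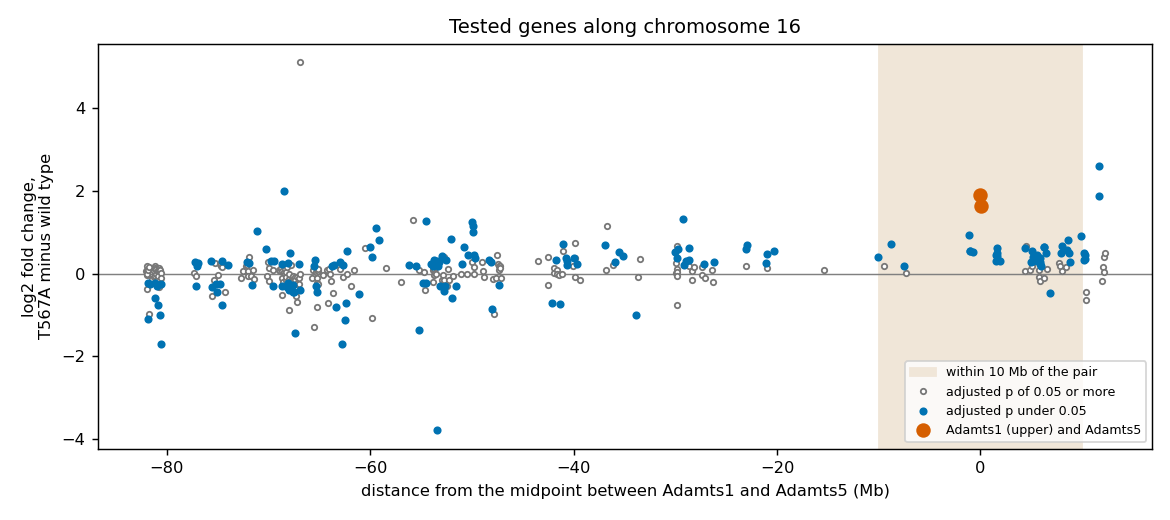
Log2 fold change from wild-type ezrin to T567A (y axis) of each tested gene of chromosome 16 against its distance in Mb from the midpoint between Adamts1 and Adamts5 (x axis). Most of the 53 genes in the shaded window of 10 Mb on each side lie above 0, 36 of them called higher, and the large points of Adamts1 (1.90) and Adamts5 (1.64) lie above all of these 53.

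Adamts2, the procollagen N-propeptidase, was at 8.25 and 9.22 CPM in the parental libraries and 13.4 and 13.8 CPM with empty vector. It was at 3.26 and 2.97 CPM with wild-type ezrin, 2.69 and 2.23 CPM with T567A, and 6.93 and 6.25 CPM with T567D. The empty-vector libraries were the highest, the wild-type and T567A libraries the lowest, and the libraries of no pair of lines overlapped. Adamts2 fell 4.35-fold from empty vector to wild-type ezrin (log2 -2.12, SE 0.15, adjusted p = 2.29e-09 in the edgeR quasi-likelihood test), the largest change of any member in the 4 comparisons among ezrin-disrupted lines. It was 2.12-fold higher with T567D than with wild-type ezrin (log2 1.08, SE 0.17, adjusted p = 0.000881), and this call held in every alternative tried. T567A and wild-type ezrin were not told apart (log2 -0.35, SE 0.20, adjusted p = 0.175), and T567A was below T567D by 1.43 on the log2 scale (SE 0.18, adjusted p = 1.27e-06). From parental cells to empty vector Adamts2 rose by 0.64 (SE 0.12, adjusted p = 0.00016). Adamts2 overlaps 3 annotated non-coding transcripts on the other strand, and whether counting used the strand is not given in the sources used here.

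Adamts14, which shares the procollagen substrate with Adamts2 but was not listed, was the only other family gene with a sizeable level, at 8.49 to 17.6 CPM in the 10 libraries. It was called in none of the 5 comparisons. Outside these, it was lower with T567A than with empty vector (log2 -0.72, SE 0.20, adjusted p = 0.012 in the edgeR quasi-likelihood test). Of the other 9 unlisted family genes, 8 had at most 10 counts summed over all 10 libraries, and Adamts17 stayed below 1 CPM.

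Adamts4, an aggrecanase known to be induced by inflammatory signals, was at 1.28 and 1.17 CPM in the parental libraries, from 22 and 20 counts. It was at 6.33 and 6.71 CPM with empty vector, 5.18 and 6.46 CPM with wild-type ezrin, 3.80 and 4.79 CPM with T567A and 5.31 and 6.84 CPM with T567D. Both parental libraries lay below the other 8, and the empty-vector, wild-type and T567D libraries overlapped. Adamts4 rose 5.30-fold from parental cells to empty vector (log2 2.41, SE 0.23, adjusted p = 1.03e-08 in the edgeR quasi-likelihood test), the largest fold of any member in the 5 comparisons. T567A was below T567D by 0.49 on the log2 scale (SE 0.18, adjusted p = 0.0336), with adjusted p-values of 0.05 and above in 5 alternatives. Between T567A and wild-type ezrin the change was -0.43 (SE 0.18, adjusted p = 0.0672), with adjusted p-values of 0.0372 to 0.0495 in 3 alternatives.

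Adamts12 was at 12.6 and 14.6 CPM in the parental libraries and at 19.0 to 32.0 CPM in the 8 derived ones, with no overlap between these sets. It rose by 0.59 from parental cells to empty vector (SE 0.13, adjusted p = 0.00065 in the edgeR quasi-likelihood test) and was not called in the other 4 comparisons with all libraries. Without T567A replicate 3 it was called higher with T567A than with wild-type ezrin (adjusted p = 0.00263) and T567D (0.0241). Its relative Adamts7 was at 3.66 and 3.21 CPM in parental cells, 5.99 and 6.94 CPM with empty vector, 8.38 and 6.00 CPM with wild-type ezrin, 4.35 and 3.62 CPM with T567A and 4.62 and 6.96 CPM with T567D. The parental and T567A libraries of Adamts7 overlapped and lay below the other 6. It rose by 0.91 from parental cells to empty vector (SE 0.21, adjusted p = 0.00113) and fell by 0.86 from wild-type ezrin to T567A (SE 0.21, adjusted p = 0.00242), where the adjusted p was 0.0643 without wild-type replicate 1. Adamts7 overlaps the antisense gene Tbc1d2b by 6045 bases, and the part of shared reads in these calls was not tested. Tbc1d2b was at 39.1 and 40.1 CPM in parental, 26.7 and 27.6 CPM in empty-vector, 27.9 and 24.3 CPM in wild-type, 19.5 and 21.2 CPM in T567A and 26.5 and 29.4 CPM in T567D libraries. It was thus lower where Adamts7 rose from parental cells to empty vector, and lower, as Adamts7 was, with T567A than with wild-type ezrin.

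Adamts10 was at 11.4 and 9.10 CPM in the parental libraries, 8.82 and 6.94 CPM with empty vector, 7.04 and 7.14 CPM with wild-type ezrin, 5.18 and 3.79 CPM with T567A and 6.47 and 7.83 CPM with T567D. Both T567A libraries lay below the other 8. It fell by 0.68 from wild-type ezrin to T567A (SE 0.19, adjusted p = 0.00614 in the edgeR quasi-likelihood test), with an adjusted p of 0.0969 without T567A replicate 3. The call between parental cells and empty vector (log2 -0.38, SE 0.16, adjusted p = 0.046) was lost in 8 of 19 alternatives, DESeq2 among them, with an adjusted p of 0.38 without parental replicate 1 and 0.368 without empty-vector replicate 3. Adamts6 ranged from 3.28 to 6.20 CPM with a median of 4.11 CPM, the libraries of neighbouring lines overlapped throughout its order of levels, and it was called in none of the 10 pairs of lines with all libraries. Without T567D replicate 1 it was called lower with T567A than with T567D (adjusted p = 0.0194). Adamts9, which cuts versican and also acts inside cells in protein transport, had 1 count in 1 T567D library and 0 in the other 9, each of which allows a level up to the floor, so no change was detectable at this depth.

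The partners of the ADAMTS enzymes were described from lists of pathway genes. Of 7 tested inhibitors, binding partners and clearance genes, 3 rose, 3 fell and 1 was not called from parental cells to empty vector. Of all tested genes 27.4% rose and 27.2% fell there. The median of the 7 was -0.71 against 0.00 over all tested genes. Timp3, the main ADAMTS inhibitor, fell by 1.73 (1418 ± 72.5 to 427 ± 16.9 CPM, mean ± SD, n = 2), Timp1 fell by 1.13, Lrp1 fell by 0.71 and Timp2 rose by 0.92. From wild-type ezrin to T567A 1 rose, 4 fell and 2 were not called (39.6% of all tested genes were called), with a median of -0.42. There Timp3 rose by 0.64 (402 ± 33.6 to 626 ± 79.8 CPM, n = 2), Lrp1 fell by 1.02 (249 ± 1.72 to 123 ± 9.01 CPM, n = 2), and Fn1, the fibronectin gene, fell by 1.73 (168 ± 7.37 to 50.6 ± 1.03 CPM, n = 2). The largest adjusted p among these called genes in these 2 comparisons was 8.69e-06 (edgeR quasi-likelihood test, Benjamini-Hochberg). From wild-type ezrin to T567D Fn1 rose by 0.66 and Timp2 fell by 0.28, and the other 5 were not called. Of all tested genes 1.34% were called there.

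Genes of the substrates and their processing moved in both directions, as did the tested genes as a whole. Of 9 tested fibrillar procollagen and procollagen-processing genes, 4 rose and 4 fell from parental cells to empty vector, with a median of 0.06. Of all tested genes 27.4% rose and 27.2% fell there. Col1a1, the gene of 1 type I collagen chain, fell by 2.49 (1816 ± 15.8 to 324 ± 4.67 CPM, n = 2), while Col3a1 rose by 0.78. Col1a2, the gene of the other type I chain, moved less. Its means were 3528 CPM in parental cells, 2913 with empty vector, 2986 with wild-type ezrin, 3160 with T567A and 3214 with T567D. From wild-type ezrin to T567A 1 of the 9 rose, 4 fell and 4 were not called, with a median of -0.16, where 39.6% of all tested genes were called. Col5a1 was among those that fell, by 0.89 (188 ± 9.39 to 102 ± 2.98 CPM, n = 2). From wild-type ezrin to T567D 1 rose, 1 fell and 7 were not called (1.34% of all tested genes were called). Col1a1, the 1 that rose in each, was higher by 1.22 with T567A and by 1.50 with T567D than with wild-type ezrin (adjusted p = 1.42e-11 and 1.37e-11, edgeR quasi-likelihood test). Of the hyaluronan-binding proteoglycans only Vcan, the versican gene, had a sizeable level. It fell by 0.59 from parental cells to empty vector (113 ± 14.5 to 74.9 ± 7.81 CPM, n = 2) and was not called in the other 4 comparisons, and Acan, the aggrecan gene, was at 0 in all line means.

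Of 9 other tested matrix substrates, 1 rose, 3 fell and 5 were not called from wild-type ezrin to T567A. Of all tested genes 39.6% were called there, 20.4% of them all as higher. The median of the 9 was -0.32 against 0.00 over all tested genes. Thbs1, the thrombospondin 1 gene, rose by 1.28 (665 ± 0.952 to 1617 ± 30.4 CPM, n = 2), and had fallen by 1.55 from parental cells to empty vector. Ltbp1 and Fbn1, both genes of microfibril proteins, fell by 0.65 and 0.65, and Bgn, the biglycan gene, fell by 0.32.

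Of the 6 tested genes for secretion and activation, 1 fell from wild-type ezrin to T567A and the other 5 were not called. It was Furin, the convertase that activates many ADAMTS precursors, which fell by 0.54 (106 ± 7.43 to 73.1 ± 5.87 CPM, n = 2). Of all tested genes 39.6% were called there. From parental cells to empty vector 3 rose (27.4% of all tested genes did) and 3 were not called. B3glct, which adds a sugar to thrombospondin repeats, was up by 0.75. Of 4 tested ADAMTS-like genes, which lack the protease domain, all 4 fell from parental cells to empty vector (27.2% of all tested genes did), with a median of -0.57. From empty vector to wild-type ezrin 1 of the 4, Adamtsl4, rose, by 0.68, and 3 were not called. Of all tested genes 15.6% were called there. From wild-type ezrin to T567A 1 rose, 1 fell and 2 were not called, where 39.6% of all tested genes were called. Thsd4, at a low level, rose by 1.17 (0.461 ± 0.00604 to 1.06 ± 0.161 CPM, n = 2), and Adamtsl3 fell by 0.74.

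For the 3 members whose line means differed over 4-fold, the genes with the most similar pattern were sought among 10705 tested genes, by the root mean square difference of centred log2 CPM over the 10 libraries. For Adamts5 they were Tlr1 (0.143), Thbs1 (0.183) and Flrt2 (0.200). For Adamts4 they were Kcnk2 (0.151), Serpinb1b (0.196) and Nsg1 (0.201). For Adamts2 the best likenesses were looser, at 0.361 for Foxd1, 0.414 for Nkain1 and 0.422 for Fstl1. Against these values the genes' own centred log2 levels had a root mean square of 0.817 for Adamts5, 0.870 for Adamts4 and 0.903 for Adamts2.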

How the data were processed

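The 10 libraries, 2 from each of 5 lines, were made from poly-A RNA with strand marking and read on a DNBSEQ instrument, per the labels' protocols. For each library the authors deposited a table of raw counts and a table of RPKM values over the same 41743 gene names. The submitters' processing notes name the build GRCm38. Not given in the sources used here are the read aligner, the counter with its annotation, and its strand setting. A gene and an overlapping gene on the other strand may therefore share reads. A further overlap of this kind is not reported here.

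Groups and replicate numbers came from the sample titles, and all deposited columns of library values were used (0 were left out). Counts were analysed with edgeR 4.0.16 in R 4.3.3. The filter filterByExpr (minimum count 10, minimum total 15) left 12595 genes, and TMM gave the scaling. A robust quasi-likelihood fit took 1 mean for each line, leaving 5 residual degrees of freedom. It moderated each gene's spread with that of all tested genes, so p-values do not rest on those 5 degrees of freedom alone. Genes were called where the Benjamini-Hochberg adjusted p over all tested genes (two-sided test) was under 0.05, and the standard error is the absolute log2 fold change divided by the square root of F. CPM in the text use TMM-adjusted totals, except for markers of other cell types and the floor, which use plain totals. The test was checked on simulated data. As alternatives, scaling was changed to RLE or upper quartile, the tool to DESeq2 1.42.0 or to limma 3.58.1 on log2(RPKM + 0.1) or log2(RPKM + 1), and the filter to none or to 1 CPM in 2 libraries. Further ones were a replicate block, a fit of only the 2 lines compared, and leaving out 1 library at a time.

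The members and lists were chosen with earlier results of these data known. Named were all 9 members, 6 neighbours on each side of Adamts1 and Adamts5, and the 3 genes most similar to members ranging over 4-fold. From each pathway list and comparison, genes were taken from up to 4 called genes with at least 1 CPM and the largest changes. The values of some of these are not given above, Col5a3, Pcolce2 and Dcn among them. Col1a2 and Acan were named beside them. The other genes named within 10 Mb, and those named past it on chromosome 16, were chosen after their values were seen. Positions and coding stretches came from GENCODE M21, matched by name for 40523 of the 41743 names, and promoter windows from RefSeq.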

Additional observations from a re-analysis of the deposited data

How the results depend on the processing

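Over the 8 tested members, 6 pairs of lines (the 5 comparisons and T567A minus parental) and all alternatives, 859 values kept their direction and their side of the threshold, 33 lost the call, 6 gained it and 14 changed sign. The rises of Adamts1 and Adamts5 with T567A over wild-type ezrin, the fall of Adamts5 and the rise of Adamts4 from parental cells to empty vector, and the 2 calls of Adamts2 against wild-type ezrin kept direction and call in all of them.

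The labels do not say that equal replicate numbers mark a shared culture. With a replicate block the members called numbered 7, 2, 4, 1 and 4 in the 5 comparisons in the order given above, and all genes called 5697, 1082, 3355, 131 and 3849; deviations of libraries that share a number correlated at -0.0995 to -0.00742 where 2 numbers were shared. For wild-type ezrin minus empty vector, all genes called (1966) became 2955 with only the 2 lines compared, 1294 with DESeq2 and 853 to 2515 when libraries were left out, and the members called ranged from 1 to 3. Upper-quartile scaling gave 1249 higher and 674 lower there, against 1039 and 927. For T567A minus wild type 3314 to 5006 genes were called without 1 library (4983 with all), and for T567A minus T567D 3 to 7 members. For T567D minus wild type (169) there were 300 with no filter, 63 and 89 with limma on RPKM plus 0.1 and plus 1, and 47 to 302 when libraries were left out. The causes were not tested.

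The 14 values that changed sign were called neither with all libraries nor in the alternative. When each library was left out in turn, the log2 change of Adamts6 ran from -0.34 to 0.020 for empty vector minus parental, -0.41 to 0.029 for T567A minus wild type, -0.37 to 0.074 for T567A minus parental (0.043 without parental replicate 3) and -0.093 to 0.50 for T567D minus wild type. For wild-type ezrin minus empty vector it ran from -0.11 to 0.37 for Adamts7 and from -0.32 to 0.025 for Adamts10, where the replicate block gave 0.038. For T567D minus wild type it ran from -0.030 to 0.13 for Adamts1, -0.13 to 0.23 for Adamts4 (-0.089 without wild-type replicate 1), -0.042 to 0.18 for Adamts5 and -0.13 to 0.14 for Adamts10, and for T567A minus T567D from -0.11 to 0.31 for Adamts12. With 2 libraries a line and 20 to 117 counts a library for Adamts4, changes of the low members are the least precise.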

Other observations

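The 53 tested genes within 10 Mb of Adamts1 and Adamts5 include the interferon and interleukin receptor cluster of chromosome 16, which was looked at after the values of this region had been seen. From wild-type ezrin to T567A, Ifnar1, a chain of the type I interferon receptor, rose by 0.40 (35.4 ± 3.32 to 46.7 ± 0.236 CPM, mean ± SD, n = 2; adjusted p = 0.000358, edgeR quasi-likelihood test). Its partner chain Ifnar2 rose by 0.45 (30.6 ± 0.931 to 41.6 ± 2.62 CPM, n = 2; adjusted p = 0.000169, edgeR). Ifngr2, a chain of the interferon gamma receptor, rose by 0.28 (adjusted p = 0.00324, edgeR), and Il10rb, shared by several interleukin receptors, rose by 0.38 (adjusted p = 0.0110, edgeR). With empty vector, however, Ifngr2 was at 74.5 ± 4.28 CPM, beside 74.3 ± 0.819 CPM with T567A, and Il10rb at 15.8 ± 1.92 beside 17.4 ± 1.34 CPM (n = 2 each). Runx1, a transcription factor gene of the same region, was the 1 gene there that fell, by 0.48 (adjusted p = 0.000257, edgeR).

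Adamts17, an unlisted family member with few reads, had 1 and 1 counts in the parental libraries, 14 and 7 with empty vector, 13 and 12 with wild-type ezrin, 3 and 2 with T567A, and 10 and 7 with T567D. Both parental and both T567A libraries lay below the other 6. Adamts17 passed the filter and was called higher with empty vector than in parental cells. It was called lower with T567A than with wild-type ezrin and than with T567D.

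Adamts6 lies on chromosome 13, where the median log2 change of all tested genes from parental cells to empty vector was 0.44. Adamts6 itself changed by -0.16 there and was not called, a difference of -0.60 from that median.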
